A study of Rattus norvegicus with 35 samples.

Results

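The subject is the liver of rats fed triadimefon, a triazole fungicide, at 500 ppm, set against the liver of untreated rats. The arrays were chosen by their titles: 5 arrays of triadimefon at 500 ppm and 7 of controls at 0 ppm, 12 of the 35 arrays of the series, of which 32 hold values. All probe sets of these arrays except the Affymetrix control probe sets were used, which are 31042 of 31099. The study fed Wistar Han IGS rats a diet with myclobutanil, propiconazole or triadimefon from gestation day 6 to postnatal day 92, when the tissue was taken. Control animals received no fungicide and were of the same strain and age. Each array holds RNA of 1 animal. The labels do not give sex or litter, so p-values measure the spread between these animals, some of which may be siblings. Liver is the tissue in the titles and in the protocol for labelling, whereas the extraction protocol names testis. Albumin, Alb, had a mean control score of 5.68, the highest of 14 hepatocyte markers, whose median was 4.57. Of 17 testis markers the highest in the controls was Prm1, a sperm protamine, at 0.858, with a median of 0.00125. Their summed score ran from -1.44 to 2.64 in controls and from -0.348 to 5.39 in treated arrays. The treated mean was higher for 10 of 17 (58.8%, against 20.1% of all genes), 0 of them at an unadjusted p under 0.05 in limma. Levels of different probe sets are not strictly comparable. The control scores give no sign against the liver label, and the higher upper end of the testis sum in treated arrays was not tested.

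Triazole fungicides block the fungal sterol demethylase, whose counterpart in rat cholesterol synthesis is Cyp51. In rodent liver, foreign compounds of this kind are known to act through the constitutive androstane receptor (CAR) and the pregnane X receptor (PXR), which raise cytochromes P450 of the 2B and 3A families, conjugating enzymes and transporters. A second sensor, the aryl hydrocarbon receptor (AhR), controls Cyp1a1. Phase I enzymes such as P450s oxidise a compound, phase II enzymes conjugate it, and transporters move it out of the cell.

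The values are the authors' deposited scores, 1 per probe set and array, of unknown scale and log base. Array medians lay near 0. A difference is therefore a difference of scores, not a fold change, and scores of different probe sets are not compared. Unless another source is named, a difference is triadimefon 500 ppm minus control with its SE from the limma fit, and adjusted p-values (Benjamini-Hochberg over 31042 probe sets) come from the same fit. A probe set passed where the adjusted p lay under 0.05.

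The control arrays were not alike in RNA integrity, and the treated arrays were. The excess of the 3′ over the 5′ probe sets of GAPDH and β-actin (the 3′–5′ difference, in scores) is larger where RNA is degraded or copied incompletely. It was 0.643, 1.11, 0.500, 1.75, 1.68, 1.29 and 2.12 in controls 1 to 7, with a mean of 1.30 ± 0.595 (SD, n = 7). In the treated animals it was 0.481, 0.577, 0.561, 0.469 and 0.505, with a mean of 0.519 ± 0.0479 (SD, n = 5). The treated arrays were low together, and control 3 alone lay among them. The group means differed by -0.781 (two-sided exact permutation test over 792 regroupings, p = 0.0215). Controls 4 to 7 lay above 0.9 on the GAPDH reading, as did 0 of the 5 treated arrays. Controls 5 to 7 also carry animal numbers above 3000, and the other 4 controls and all 5 treated animals carry lower ones. The array SD of the scores ran from 0.757 to 0.868 in controls and from 0.723 to 0.776 in treated animals. Adjusting for the 3′–5′ difference, or leaving out every array with a high reading, left 0 probe sets past the threshold. For single genes, the difference from controls 1 to 3 alone, the 3 without a high GAPDH reading, is given where it moved by more than 1.5 times or changed sign. These 3 are not matched to the treated arrays in integrity, because controls 1 and 2 still lay above every treated array. On the β-actin reading control 2, at 1.63, lay above control 6, at 1.40.

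**Figure D1:**
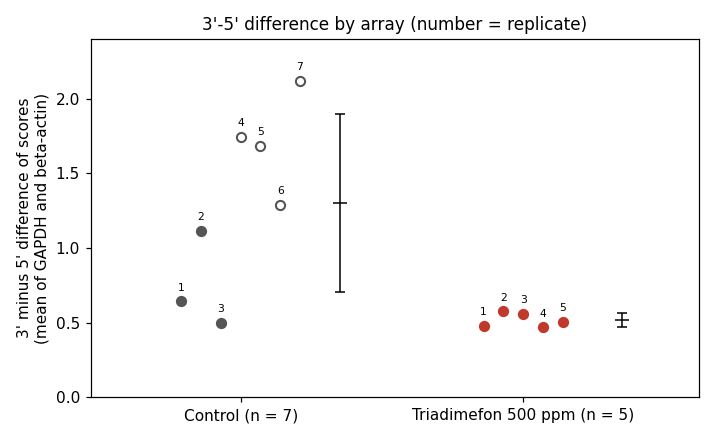
The 3′–5′ difference of each array (mean of GAPDH and β-actin, in scores) for the 7 controls and the 5 animals at triadimefon 500 ppm, with the replicate number above each point and the mean and SD as bars. Open circles mark arrays with a GAPDH reading above 0.9, which are controls 4 to 7. The treated arrays lie between 0.469 and 0.577, and the controls between 0.500 and 2.12.

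Few transcripts passed at this dietary level. In the limma fit 0 probe sets rose (0% of 31042) and 3 fell (0.00966%), against 1277 higher and 7831 lower probe sets at an unadjusted p under 0.05. The scores of the treated arrays were lower over the whole table, with a median difference of -0.0438 and a positive difference in 23.9% of probe sets. Quantile normalisation, which gives every array the same distribution of scores, moved that median to -0.00452. It turned the split to 20 probe sets higher (0.0644%) and 21 lower (0.0677%), representing 14 and 14 genes. By position alone, all 5 treated arrays lay above all 7 controls for 41 probe sets (0.132%) and below them for 684 (2.2%). Among the 14217 genes with 1 symbol these were 12 and 350. The main count also rests on single controls: it was 3746 without control 1 and 4464 without control 3, the 2 controls with the lowest array SD, and 17 without control 2. It was 0 without control 4 or control 5, 1 without control 6, 1 without treated array 1 and 0 without any other treated array.

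The probe set shared by Cyp2b1 and Cyp2b2, the phenobarbital-inducible P450s that serve as the usual readout of CAR, had the widest difference of the genes of foreign compound metabolism. The transcripts of both genes are read together here, as the platform annotation gives both symbols to the probe set. The stretches upstream of both start sites, from RefSeq (GRCr8), are shown with capitals at the positions that differ. Being outside the transcripts, these stretches do not show what the probe set reads. They lie on the plus strand at chr1:90645886-90646118 for Cyp2b1 and chr1:90722031-90722263 for Cyp2b2, aligned without gaps at an offset of 17 bases between the 2 promoter windows.
Cyp2b1: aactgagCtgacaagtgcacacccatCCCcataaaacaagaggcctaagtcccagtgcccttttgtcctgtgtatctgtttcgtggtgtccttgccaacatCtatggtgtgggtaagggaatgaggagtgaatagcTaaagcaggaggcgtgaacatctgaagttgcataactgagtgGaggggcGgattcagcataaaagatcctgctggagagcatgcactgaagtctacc
Cyp2b2: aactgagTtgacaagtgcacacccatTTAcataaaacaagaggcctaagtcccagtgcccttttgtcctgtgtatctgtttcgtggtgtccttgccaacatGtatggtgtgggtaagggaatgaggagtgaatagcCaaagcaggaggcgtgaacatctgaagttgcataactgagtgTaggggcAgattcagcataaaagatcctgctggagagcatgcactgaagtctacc
Of 233 positions 225 were the same (96.6%) and 8 differed.

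The Cyp2b score was 4.45, 3.75, 4.12, 3.77 and 3.93 in treated animals 1 to 5. In the controls it ran from 2.14 over a median of 2.60 to 3.03. Every treated animal lay above every control, and treated animal 1 was the highest. The difference was 1.49 ± 0.289 (95% interval 0.90 to 2.08) with an adjusted p of 0.0501, just short of the threshold. It was 1.52 against controls 1 to 3 (adjusted p = 0.111) and 1.79 in a fit that holds the 3′–5′ difference as covariate (adjusted p = 0.162). After quantile normalisation it was 1.83 (adjusted p = 9.57e-06), and 1.78 with that covariate as well (adjusted p = 4.15e-04). The probe set passed in 6 of the 22 alternative settings, and its difference was positive in all 22.

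Other genes of the CAR and PXR phase I list had smaller differences, and none of those named here passed as deposited. Ces2c, a carboxylesterase, read 1.68, 1.45, 1.65, 1.45 and 1.67 in the treated animals and from 0.936 over 1.18 to 1.40 in the controls. Its groups did not overlap, yet the difference of 0.406 ± 0.153 did not pass (adjusted p = 0.102). Aldh1a1, a retinaldehyde dehydrogenase, was 0.616 ± 0.239 higher (adjusted p = 0.108), with 4 of 5 treated animals above all controls. The microsomal epoxide hydrolase Ephx1 was 0.529 ± 0.258 higher (adjusted p = 0.171), also with 4 of 5 above, but 0.288 higher than controls 1 to 3. Por, which passes electrons to the P450s, differed by 0.0817 ± 0.156 (95% interval -0.24 to 0.40), and its other probe set by 0.469 ± 0.172. The PXR target Cyp3a23-3a1 differed by -0.246 ± 0.346 (95% interval -0.96 to 0.46), with treated scores of 4.10, 3.94, 4.24, 3.83 and 4.01 inside the control range of 3.70 to 5.01. After quantile normalisation its difference turned to 0.109 (adjusted p = 0.509), and it was -0.0204 from controls 1 to 3. Cyp3a2, a male-predominant P450, differed by -0.176 ± 0.353, and by 0.224 after quantile normalisation (adjusted p = 0.117) and 0.103 from controls 1 to 3. The constitutive P450s Cyp2c6v1 and Cyp2c11 differed by -0.0517 and -0.259 as deposited, and passed as higher after quantile normalisation, by 0.361 (adjusted p = 0.002) and 0.186 (adjusted p = 0.016). From controls 1 to 3 they differed by -0.0178 and -0.166. Cyp3a2, Cyp2c6v1 and Cyp2c11 were chosen after their values were seen.

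Over the 19 measured genes of the CAR and PXR phase I list, 0 passed and 2 (10.5%, against 0.0844% of all genes) had every treated animal above every control, the Cyp2b probe set and Ces2c. 8 had a positive difference and the median was -0.121, against -0.0584 over all genes. After quantile normalisation 18 of 19 were positive with a median of 0.224, against -0.00879 over all genes, and 3 passed. The direction of the list therefore depends on the scaling, whereas that of Cyp2b does not. Nr1i3, which encodes CAR itself, read 1.15, 0.934, 1.27, 0.535 and 0.913 in treated animals and 0.392 to 0.763 in controls. Treated animal 4 lay within the controls and the others above them (difference 0.376 ± 0.113, adjusted p = 0.0759).

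Cyp1a1, the P450 that responds most strongly to AhR ligands, split the treated animals. Treated animals 1, 2 and 5 read 2.22, 1.69 and 1.52, far above the control range of -0.112 to 0.342. Treated animals 3 and 4 read 0.140 and 0.328 and lay inside it. The difference of 1.12 ± 0.338 did not pass (adjusted p = 0.0759), and the SD was 0.902 in the treated group against 0.157 in the controls. Gsta3, an alpha-class glutathione transferase, was above all controls in the same 3 animals, with 1.30, 0.727 and 0.943 in animals 1, 2 and 5. It read 0.290 and 0.446 in animals 3 and 4, and 0.00761 over a median of 0.210 to 0.691 in the controls. The Gsta3 difference was 0.454 ± 0.205 (adjusted p = 0.146). Both genes were set beside each other after their values were seen. The receptor gene Ahr was 0.279 ± 0.0968 higher (adjusted p = 0.0884) and 0.166 higher than controls 1 to 3, and its other probe set differed by -0.0203. Nqo1, a quinone reductase, differed by 0.526 ± 0.320, and Cyp1a2, the second AhR-controlled P450 of liver, by -0.0713 ± 0.258, turning to 0.281 after quantile normalisation and to 0.00731 from controls 1 to 3; neither passed, and both were chosen after their values were seen. Of 9 AhR genes 0 passed and 6 were positive, with a median of 0.0692, and 9 of 9 were positive after quantile normalisation, with a median of 0.128.

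Conjugating enzymes were led by Ugt2b1, a glucuronosyltransferase known as a phenobarbital-responsive gene. It read 3.51, 3.22, 3.22, 3.08 and 3.12 in treated animals and from 2.28 over 2.58 to 2.78 in controls. All treated animals were above all controls. The difference was 0.691 ± 0.215 as deposited (adjusted p = 0.0777), 0.766 against controls 1 to 3 (0.39) and 1.01 with the covariate (0.416). After quantile normalisation it was 1.01 (adjusted p = 7.39e-04), and 0.996 with the covariate as well (0.0151). The mu-class glutathione transferase Gstm3 read 0.537, 0.335, 0.524, 0.517 and 0.415 against -0.109 over -0.0436 to 0.277 in controls. Here too the groups did not overlap (difference 0.438 ± 0.0939, adjusted p = 0.06). Controls 1 and 3 were the highest controls, and against controls 1 to 3 the Gstm3 difference was 0.285. Ugt2a1, another glucuronosyltransferase, was 0.310 ± 0.0952 higher without overlap (adjusted p = 0.0769) and 0.182 higher than controls 1 to 3, and was chosen after its values were seen. These 3 of 39 phase II genes (7.69%, against 0.0844% of all genes) had every treated animal above every control, 0 had every one below, and 0 passed. 15 of the 39 were positive with a median of -0.103, and 28 of 39 with a median of 0.0951 after quantile normalisation, where 2 passed, Ugt2b1 and Gstm3.

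**Figure D2:**
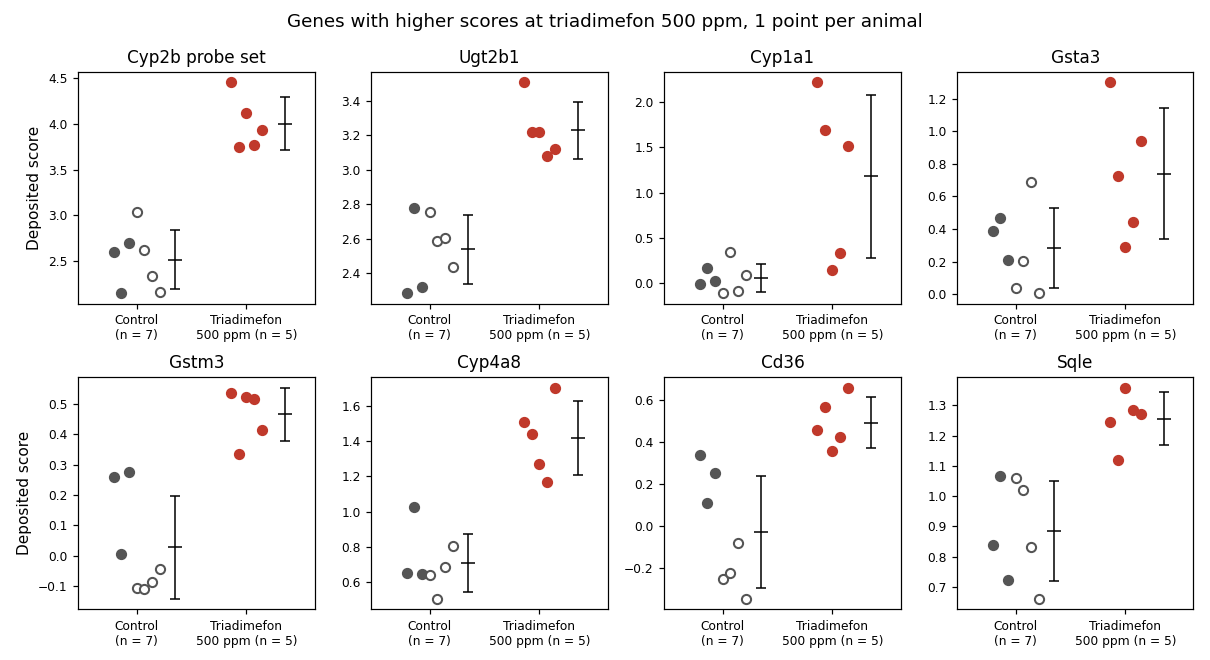
Deposited score of each animal for 8 genes, with the 7 controls in grey, the 5 animals at triadimefon 500 ppm in red and the mean and SD as bars; open circles are the controls with a GAPDH 3′–5′ reading above 0.9. For Cyp2b, Ugt2b1, Gstm3, Cyp4a8, Cd36 and Sqle every red point lies above every grey one, and for Cyp1a1 and Gsta3 3 of 5 do.

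Among transporters the widest difference lay in 1 probe set of Slco1a4. Slco1a4, an organic anion uptake transporter, is read by a pair of probe sets. The brighter one differed by 0.0795 ± 0.263 (adjusted p = 0.852; 0.360 from controls 1 to 3), and the other by 1.03 ± 0.230 (adjusted p = 0.06), which passed after quantile normalisation at 1.24. Slco1a1, its male-predominant relative, read 2.25, 2.04, 2.15, 2.06 and 2.10 against 1.58 to 2.10 in controls (difference 0.302 ± 0.104, adjusted p = 0.0873), but the difference was 0.135 from controls 1 to 3 (adjusted p = 0.843). Slco2b1, another organic anion transporter, differed the other way in its brighter probe set, by -0.314 ± 0.115 with 4 of 5 treated animals below all controls. That probe set differed by -0.160 from controls 1 to 3, and the other Slco2b1 probe set by 0.359 ± 0.134 from all controls. Slco1a4 was chosen after its values were seen. The efflux pump Abcc3 differed by 0.0542 ± 0.0748 (95% interval -0.10 to 0.21), and by 0.0268 from controls 1 to 3. Of 21 transporters 0 passed, 7 were positive and the median was -0.0742.

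Cholesterol synthesis was the list with the highest share of positive differences as deposited, 13 of 18 with a median of 0.0488, and 16 of 18 with 0.245 after quantile normalisation. Sqle, the squalene epoxidase, read 1.24, 1.12, 1.36, 1.29 and 1.27 in treated animals and from 0.662 over 0.839 to 1.07 in controls. All treated animals lay above all controls, the nearest pair being treated animal 2 and control 2. The difference was 0.371 ± 0.0946 (adjusted p = 0.0721), and 0.502 after quantile normalisation, where it passed. Acat2, which makes acetoacetyl-CoA, was 0.259 ± 0.0743 higher (adjusted p = 0.0748) and 0.392 higher than controls 1 to 3. Idi1, the isopentenyl diphosphate isomerase, was 0.530 ± 0.193 higher, and Fdft1, the squalene synthase, 0.141 ± 0.0878; Acat2 and Fdft1 also passed after quantile normalisation, by 0.370 and 0.385. Mvd, the mevalonate diphosphate decarboxylase that acts before Idi1, differed by -0.129 ± 0.0488, and by -0.0340 from controls 1 to 3. Lss, the lanosterol synthase that acts after Sqle, differed by 0.101 ± 0.0541. Cyp51, the lanosterol demethylase, read 3.13, 2.81, 3.09, 2.85 and 3.07, inside the control range of 2.67 to 3.74. It differed by -0.131 ± 0.246, and by 0.193 after quantile normalisation (adjusted p = 0.324) and 0.120 from controls 1 to 3. Its other probe set differed by 0.158 ± 0.109. Idi1 and Fdft1 were chosen after their values were seen.

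Among genes of fatty acid handling, a few lay above the controls and others below. Cyp4a8, a fatty acid hydroxylase, read 1.51, 1.44, 1.27, 1.17 and 1.70, and from 0.508 over 0.653 to 1.03 in controls. The groups did not overlap (difference 0.709 ± 0.178, adjusted p = 0.0721; 0.849 and passing after quantile normalisation). Cd36, the fatty acid translocase, read 0.457, 0.569, 0.359, 0.424 and 0.661 against -0.344 over -0.0783 to 0.342. Its difference was 0.520 ± 0.106 (adjusted p = 0.0503). The 4 controls of high 3′–5′ reading all lay below controls 1 to 3, and against the latter the Cd36 difference was 0.257 (adjusted p = 0.39). Cidea, a lipid droplet protein, was 0.336 ± 0.147 higher without overlap, and Me1, the malic enzyme, 0.364 ± 0.113 higher with 4 of 5 above (0.211 from controls 1 to 3). The other Me1 probe set differed by 0.0213 ± 0.148. In the other direction, Acsl5, an acyl-CoA synthetase, read 2.29, 2.46, 2.02, 2.55 and 2.46 against 2.76 to 3.62 in controls (difference -0.708 ± 0.186, adjusted p = 0.0721). With the 3′–5′ difference as covariate the Acsl5 difference was -0.379 ± 0.173 and did not pass. Apoa4, an intestinal and hepatic apolipoprotein, was below all controls (difference -0.732 ± 0.211, adjusted p = 0.0752). Scd, the stearoyl-CoA desaturase, differed by -0.617 ± 0.416, with control scores spread from 2.36 to 4.16 and a difference of -1.20 from controls 1 to 3. Fabp5, a fatty acid binding protein, differed by -0.551 ± 0.153 with 2 of 5 treated animals below all controls. Of 35 PPARα targets 0 passed, 2 lay above all controls (5.71%, against 0.0844% of all genes; Cyp4a8 and Cd36) and 1 below (2.86%, near the 2.46% of all genes; Cyp4a1). Their median was -0.156 as deposited and 0.0435 after quantile normalisation. Cidea and Cyp4a1 were chosen after their values were seen.

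Both named genes that fell encode membrane proteins. Elapor1, an endosome and lysosome associated transmembrane protein, read 0.320, 0.484, 0.274, 0.498 and 0.427 in treated animals and from 0.705 over 0.812 to 1.07 in controls. The highest treated animal, at 0.498, lay below the lowest control. It fell by 0.457 ± 0.0757 (adjusted p = 0.0299; 0.016 after quantile normalisation), and was -0.350 against controls 1 to 3 without passing (adjusted p = 0.197). Tram1l1, a relative of the translocation protein of the endoplasmic reticulum, read -0.383, -0.545, -0.512, -0.503 and -0.436 against -0.410 over -0.278 to -0.194. Treated animal 1 overlapped with control 7, and the others lay below all controls. It fell by 0.195 ± 0.0336 (adjusted p = 0.0373), and the call was lost after quantile normalisation (adjusted p = 0.0567). The remaining probe set past the threshold, 1382098_at, has no gene symbol in the platform annotation. It fell by 0.189 ± 0.0309 (adjusted p = 0.0299) with all treated animals below all controls. With the 3′–5′ difference as covariate Elapor1, Tram1l1 and 1382098_at differed by -0.395, -0.188 and -0.166 (adjusted p = 0.416 each). Elapor1 passed in 8 of 22 alternative settings, Tram1l1 in 7 of 21 and 1382098_at in 10 of 21, with 1 sign throughout. Tram1l1 and 1382098_at were read by dim probe sets, among the dimmest 40% that 1 alternative setting left out.

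Next in order of p came Icmt, the methyltransferase of prenylated proteins, Neu3, a plasma membrane sialidase, Rprm, a growth arrest gene downstream of p53, and Myo10, an unconventional myosin, each at an adjusted p of 0.0501. Rprm read -0.0519, -0.0147, -0.229, -0.0327 and -0.0956 in treated animals against 0.266 over 0.468 to 0.737 in controls. Its groups lay well apart (difference -0.549 ± 0.106; -0.505 and passing after quantile normalisation), and it was -0.385 against controls 1 to 3. Icmt read between 0.368 and 0.391 in all 5 treated animals and from 0.460 to 0.760 in controls (difference -0.267 ± 0.0491). The treated animals were tightly bunched there, with an SD of 0.0101 against 0.114. Neu3 differed by -0.146 ± 0.0274 without overlap, and Myo10 by -0.195 ± 0.0382 with 4 of 5 treated animals below. From controls 1 to 3 Icmt differed by -0.165 and Neu3 by -0.0878, neither passing. Icmt and Neu3 did pass after quantile normalisation. By the width of the gap between groups, Ptprs, a receptor tyrosine phosphatase, and Pmpca, a subunit of the mitochondrial processing peptidase, stood with them, at -0.275 ± 0.0652 and -0.210 ± 0.0581. Prl8a7 and Aff2 followed with differences of -0.107 and -0.0858 in dim probe sets, and the Neu3 probe set was dim too. The other probe sets of Ptprs differed by -0.207 ± 0.173, 0.0480 and 0.0490, and that of Myo10 by -0.0126 ± 0.0349. Cdh1, the epithelial cadherin, lay below all controls at -0.750 ± 0.168 (adjusted p = 0.06; -0.550 and passing after quantile normalisation), and was chosen after its values were seen. In the higher direction the genes of smallest p or widest gap also held Ccdc32 (0.110), Fignl1, an AAA ATPase (0.0922), Mplkip (0.180), Mybpc3, a myosin binding protein (0.136), and Atp6v1c2, a proton pump subunit (0.118), of which 0 passed. From controls 1 to 3 Mplkip differed by 0.0773 and Mybpc3 by 0.0656. The other Mplkip probe sets differed by -0.0920, 0.129 and -0.0730 from all controls. Ccdc32 and Fignl1 were read by dim probe sets.

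Amino acid breakdown held the most genes with non-overlapping groups of the lists described. 6 of 35 genes of the urea cycle and amino acid catabolism (17.1%, against 2.46% of all genes) had all treated animals below all controls, and 31 had a negative difference. The 6 were Hal, Uroc1, Prodh2, Gls2, Bckdha and Kmo. The median was -0.376 as deposited and -0.0919 after quantile normalisation, where 10 of 35 were positive. Hal, the histidine ammonia-lyase, read 2.15, 1.88, 2.01, 2.37 and 2.12 against 2.54 over 2.87 to 3.30 (difference -0.777 ± 0.174, adjusted p = 0.06). Uroc1, the urocanase that acts on its product, read 3.02, 2.61, 2.74, 2.87 and 3.04 against 3.23 over 3.51 to 4.02 (difference -0.718 ± 0.244, adjusted p = 0.0857). Thus the deposited scores of both consecutive enzymes of histidine breakdown were below every control in every treated animal. Prodh2, the hydroxyproline dehydrogenase, read 1.67, 1.70, 1.56, 1.88 and 1.82 against 2.03 over 2.60 to 3.42 (difference -0.950 ± 0.240, adjusted p = 0.0721). Prodh2 and Uroc1 passed after quantile normalisation, by -0.712 and -0.425. Against controls 1 to 3 the differences were -0.661 for Hal, -0.472 for Uroc1 and -0.503 for Prodh2, each smaller in size than against all 7 controls. With the 3′–5′ difference as covariate they were -0.610 ± 0.192, -0.241 ± 0.213 and -0.356 ± 0.152 in the same order, and none passed. Uroc1, Prodh2, Gls2, Bckdha and Kmo were chosen after their values were seen.

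Of 19 genes of glucose metabolism 0 passed, and 1 was positive (5.26%, against 20.1% of all genes). Below all controls lay 3 (15.8%, against 2.46% of all genes): Pc, the pyruvate carboxylase (-0.304 ± 0.0988), Pygl, the liver glycogen phosphorylase (-0.484 ± 0.161), and Pdk2, a pyruvate dehydrogenase kinase (-0.302 ± 0.154), whose other probe set differed by 0.322. The list's median was -0.229, and -0.0679 after quantile normalisation. Pc, Pygl and Pdk2 were chosen after their values were seen. Igfals, which stabilises circulating IGF complexes, read 2.13, 2.06, 2.14, 2.23 and 2.18 against 2.42 over 2.68 to 2.85, with no overlap (difference -0.517 ± 0.164, adjusted p = 0.079). Its list, the growth hormone and IGF axis, had 0 of 18 genes past the threshold, 6 positive as deposited and 10 after quantile normalisation. Cyp7b1, an oxysterol hydroxylase of bile acid synthesis, and Fgfr4, the hepatic receptor that restrains that synthesis, were below all controls, by -0.235 ± 0.0505 and -0.312 ± 0.0851. Fgfr4 differed by -0.112 from controls 1 to 3, and Cyp7b1, in a dim probe set, by -0.126. Sesn2, a stress-induced sestrin, differed by -0.582 ± 0.157, by -0.267 from controls 1 to 3 and by -0.197 with the 3′–5′ covariate. Arrdc3, an arrestin-like protein, differed by -0.492 ± 0.156 in the probe set shown and by 0.382 ± 0.221 in its other one. Stat3, the interleukin-6 signal transducer, differed by -0.386 ± 0.128 and Klf10, an early response factor, by -0.303 ± 0.0873, both without overlap. Nfil3, a clock output repressor, differed by -0.685 ± 0.188, and by -0.254 with the 3′–5′ covariate. Hmox1, the haem oxygenase, differed by -0.323 ± 0.0936 (-0.178 from controls 1 to 3). Each of Nfil3 and Hmox1 had 4 of 5 treated animals below all controls.

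**Figure D3:**
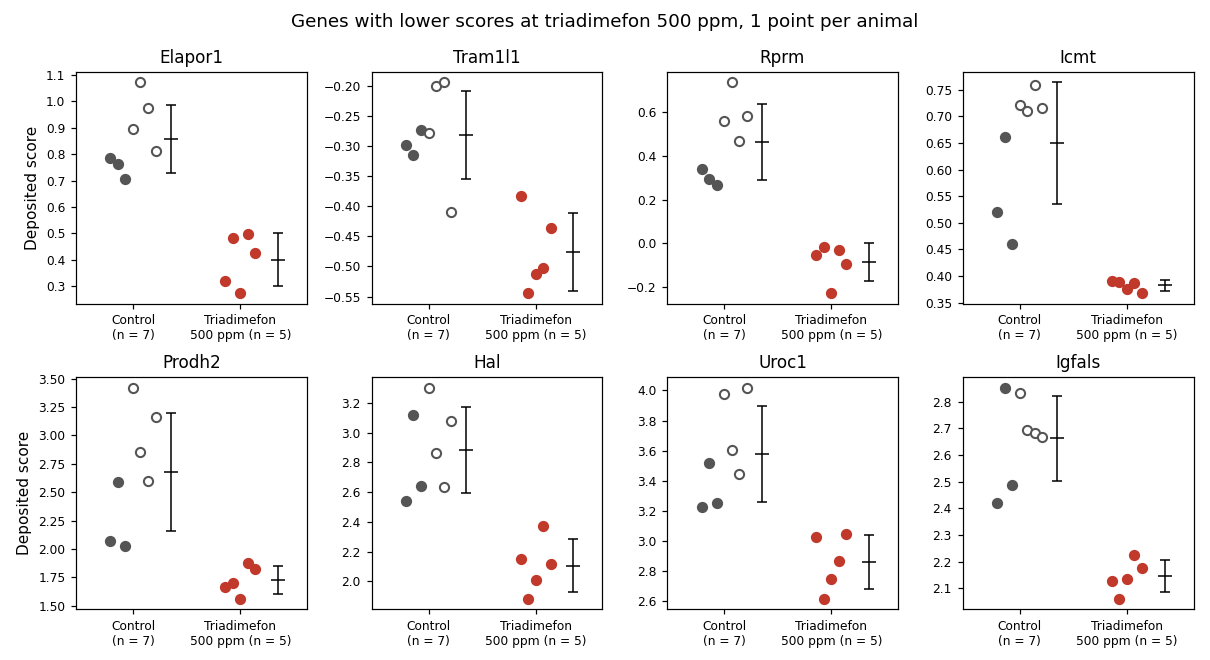
Deposited score of each animal for 8 genes with lower scores at triadimefon 500 ppm, drawn as in the plot of higher genes (controls grey, open where the GAPDH 3′–5′ reading was above 0.9; treated red; bars are mean and SD). The groups overlap for Tram1l1 and for none of the other 7 genes, and for Prodh2 controls 4 to 7 lie higher than controls 1 and 3.

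Genes that mark liver cell types bear on how these lists are read. The 14 hepatocyte markers had a median of -0.426 as deposited and 0.00841 after quantile normalisation, and their summed score ran from 53.2 to 69.6 in controls and from 52.0 to 57.7 in treated animals. Bright hepatocyte transcripts thus had lower scores as a class in the deposited values. Of 13 Kupffer cell and macrophage markers 0 passed, with a median of -0.125 and sums of 14.0 to 20.3 and 11.4 to 19.2. Of 17 stellate cell and fibroblast markers 0 passed and 12 were negative, with a median of -0.0419. Decorin, Dcn, a fibroblast matrix gene, stood against the list's majority at 0.299 ± 0.0895 with 3 of 5 above all controls (0.190 from controls 1 to 3). The chemokine Cxcl9, which interferon induces, was 0.296 ± 0.0834 higher with 4 of 5 above (adjusted p = 0.0748). The other Cxcl9 probe set was 0.456 ± 0.104 higher without overlap (adjusted p = 0.06), and passed after quantile normalisation (0.518, adjusted p = 0.0407). In whole liver, fewer cells of a type and less RNA per cell cannot be told apart, and the part of these markers in the results was not tested.

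**Figure D4:**
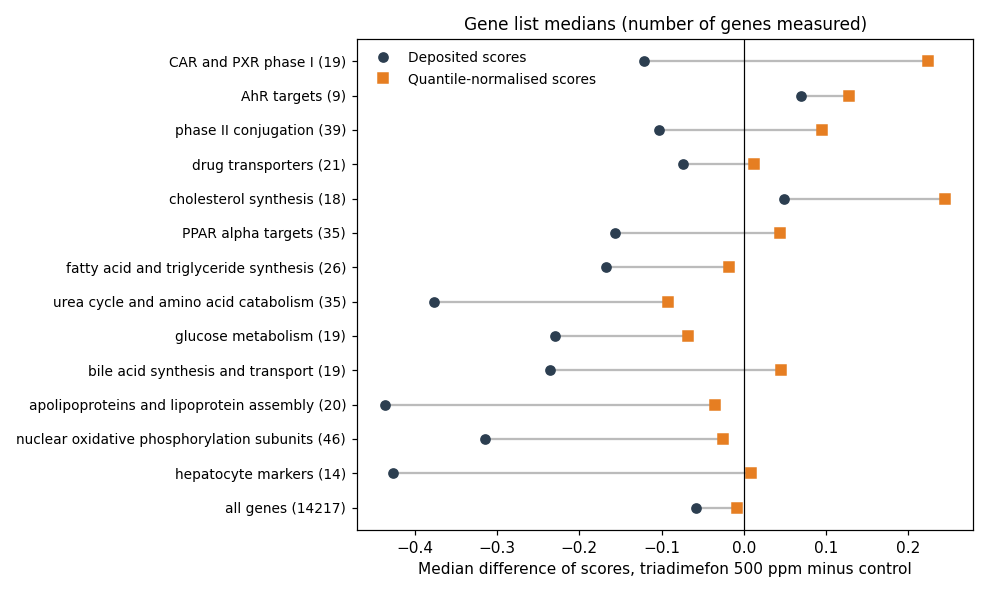
Median difference of scores, triadimefon 500 ppm minus control, over the measured genes of 13 lists and over all 14217 genes, with circles for the deposited scores and squares after quantile normalisation. Cholesterol synthesis moves from 0.0488 to 0.245, CAR and PXR phase I from -0.121 to 0.224, and urea cycle and amino acid catabolism from -0.376 to -0.0919.

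At 1800 ppm triadimefon (n = 4) the genes with the clearest differences at 500 ppm lay farther from the controls in part, and other genes stood apart from the 500 ppm level. Both comparisons share the control arrays. The Cyp2b probe set differed from the controls by 1.49 ± 0.289 at 500 ppm and by 2.93 ± 0.309 at 1800 ppm, Cyp1a1 by 1.12 ± 0.338 and 2.49 ± 0.361, and Ugt2b1 by 0.691 ± 0.215 and 1.60 ± 0.230. In the direct limma test of 1800 against 500 ppm, 6927 probe sets were higher (22.3%) and 763 lower (2.46%), and the split was 1661 and 1340 after quantile normalisation. The 3′–5′ difference was 1.49 ± 0.375 at 1800 ppm (SD, n = 4), and 3 of its 4 animals carry numbers above 3000, so that direct comparison sets arrays of unlike integrity against each other. Adjusted for the 3′–5′ difference 82 were higher and 6 lower, and blocked on the animal number series 754 and 9. Abcc3, Ces2c and Mvd passed as higher at 1800 than at 500 ppm as deposited (0.757, 1.34 and 0.566), after quantile normalisation and with the covariate, as did Aldh1a1 (1.66). Por was 1.07 and Gsta3 1.18 higher at 1800 ppm, and both also passed after quantile normalisation. With the covariate the differences were 0.813 (adjusted p = 0.0593) and 1.06 (0.0872). Cyp2b was 1.44 higher (adjusted p = 0.0063), a call lost after quantile normalisation (0.663, adjusted p = 0.0526) and with the covariate (1.07, adjusted p = 0.192). Cyp1a1 was 1.37 higher and Ugt2b1 0.906 higher, and neither passed after quantile normalisation (1.10, adjusted p = 0.0759, and 0.325, 0.174) or with the covariate (1.17, 0.25, and 0.511, 0.378).

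Not every gene was farther from the controls at the higher level. Cd36 was 0.444 lower at 1800 than at 500 ppm (adjusted p = 0.014; 0.0197 after quantile normalisation; 0.538 with the covariate). Its difference from the controls was 0.0761 at 1800 ppm. Elapor1 differed from the controls by -0.457 at 500 and -0.386 at 1800 ppm, and between levels by 0.0710 (95% interval -0.11 to 0.25). Cyp4a8 differed between levels by -0.124 (95% interval -0.54 to 0.30), and Rprm by 0.181 (95% interval -0.07 to 0.43). Prodh2 was 0.940 higher at 1800 than at 500 ppm (adjusted p = 0.0187; 0.0263 after quantile normalisation) and differed from the controls by -0.00982 there. Uroc1 followed it, at 0.969 higher (adjusted p = 0.0178; 0.013 after quantile normalisation). Apoa4 was 0.753 lower at 1800 than at 500 ppm (adjusted p = 0.0278; 2.07e-04 after quantile normalisation). Adjusted for the 3′–5′ difference none of the 3 passed: Prodh2 differed by 0.201 (adjusted p = 0.66), Uroc1 by 0.376 (0.529) and Apoa4, wider than before, by -1.03 (0.0898).

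**Figure D5:**
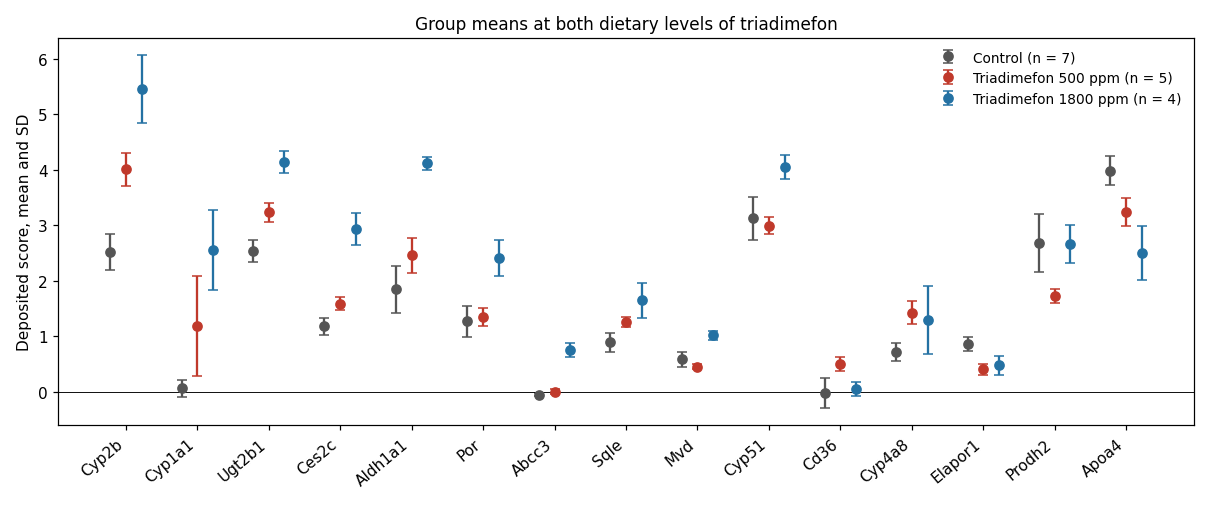
Mean score and SD of 15 genes in the controls (n = 7) and at triadimefon 500 ppm (n = 5) and 1800 ppm (n = 4). Cyp2b, Cyp1a1 and Ugt2b1 have higher mean deposited scores at each level, steps from 500 to 1800 ppm that did not pass after quantile normalisation. Por, Abcc3, Mvd and Cyp51 are near the controls at 500 ppm. At 1800 ppm the deposited means of Cd36 and Prodh2 lie near the control means of -0.0261 and 2.67. Controls 1 to 3 alone averaged 0.237 and 2.23. With the 3′–5′ covariate the Cd36 and Prodh2 differences between levels were -0.102 and 0.201, and neither passed.

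At the same dietary level, 0 probe sets (0%) differed between triadimefon and myclobutanil (n = 5) in limma, with 5934 at an unadjusted p under 0.05. Between triadimefon and propiconazole (n = 3) 0 (0%) differed as well, with 772 at an unadjusted p under 0.05. Both counts were 0 after quantile normalisation too. The 5934 became 2306 without myclobutanil animal 1, 3587 without animal 5 and 1375 with the covariate, and the 772 became 1439 without propiconazole animal 5. The mean Cyp2b score at 500 ppm was 4.00 with triadimefon, 3.96 with myclobutanil and 3.99 with propiconazole, against 2.51 in controls. For Ugt2b1 the difference was -0.0648 from myclobutanil (95% interval -0.54 to 0.41) and -0.0568 from propiconazole (-0.61 to 0.49). For Cyp1a1 it was 0.944 (0.20 to 1.69) and 0.553 (-0.31 to 1.42), for Elapor1 -0.318 (-0.49 to -0.15) and -0.216 (-0.41 to -0.02), and for Sqle 0.461 (0.25 to 0.67) and 0.311 (0.07 to 0.55). These intervals are not adjusted over probe sets, and the missed threshold does not show that the 3 compounds act alike.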

How the data were processed

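Liver RNA, 1 animal per array, was measured on the Affymetrix Rat Genome 230 2.0 platform, per the labels' protocols. The deposited values are scores per probe set and array; the sources used here do not give how the authors summarised and normalised them, or their log base. The tests were designed for log2 values and were run on the deposited score unchanged. Of 31099 probe sets, 57 controls were left out. The platform annotation gave 1 symbol to 20826, several to 436 and none to 9780. A gene was represented by its probe set of highest mean score. All 7 groups (32 arrays; 3 more hold no values) entered 1 linear model in limma 3.58.1 (R 4.3.3; lmFit, contrasts.fit, eBayes), two-sided, with Benjamini-Hochberg adjustment and 95% intervals. The fit was tested on simulated data. Promoter sequences came from RefSeq windows.

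Genes were named by rule: the genes past the threshold, filled up to 6 in each direction by smallest p; the 6 widest gaps between groups in each direction; the 2 members of smallest p of each of 43 lists; and 16 P450, conjugation, transport and lipid genes. Genes outside it are marked. Not every gene that the rule gave is described. Among those left out are Pck2 (-0.233 ± 0.0589) and Pdk1 (-0.236 ± 0.0766) of glucose metabolism and Sult1d1 (-0.0929 ± 0.0255) of phase II. The groups overlapped for each of these. Members, lists and rules were chosen with earlier results of these data known. Replicate numbers did not pair the arrays: the correlations of deviations were -0.101, -0.283, 0.192, -0.181 and -0.2 for numbers 1 to 5. Alternatives were quantile normalisation, leaving out the dimmest 40%, a fit of the 2 groups, trend and robust settings, the number series, the 3′–5′ difference, the replicate block and single arrays left out. The number of arrays limits the precision.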

Additional observations from a re-analysis of the deposited data

Results flagged for a closer look

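Aldh1a1, the retinaldehyde dehydrogenase, had 1 control far from the others. Control 7 read 0.888 where the other 6 controls read 1.83 to 2.09, a gap of 0.782 of the whole control range. This control also had the highest 3′–5′ difference, 2.12, and the relation of the reading to that score was not tested. Without control 7 the difference of triadimefon 500 ppm from the controls was 0.457 (adjusted p = 0.237 in limma), against 0.616 with it. Of 144 groups of scores checked in this way, 1 stood out (0.694%), and chance alone gives about 1 in 20.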

How the results depend on the processing

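The 3 probe sets past the threshold became 41 after quantile normalisation, 1 without the dimmest probe sets, 33 when 2 groups alone were fitted, 96 under limma's trend and robust options, 1 blocked on the animal number series, 0 for animals numbered below 3000, 0 with the 3′–5′ covariate and 0 when arrays of high 3′–5′ difference were dropped. They were 2 with the replicate block and 4 after quantile normalisation with the 3′–5′ covariate. Leaving out 1 array gave 0 to 4464 (4464 without control 3 and 3746 without control 1). The causes were not tested. For 1800 against 500 ppm, where alternatives were chosen after seeing the data, the 7690 became 3001 after quantile normalisation, 88 with the covariate, 763 blocked on the animal number series, 8386 with the replicate block and 4442 to 7579 without 1 array (4442 without animal 4 and 4919 without animal 2 at 1800 ppm, 5094 without animal 5 at 500 ppm). Against the other compounds at 500 ppm the counts were 0 under every alternative run.

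These differences changed sign, with Cyp3a2 and Cyp2c6v1 passing after quantile normalisation with the covariate and Cyp2c6v1 and Cyp2c11 after quantile normalisation. With quantile normalisation they were 0.281 (Cyp1a2), 0.109 (Cyp3a23-3a1), 0.224 (Cyp3a2), 0.361 (Cyp2c6v1), 0.186 (Cyp2c11) and 0.193 (Cyp51). With the covariate they were, in the same order, 0.287, 0.461, 0.555, 0.531, 0.361 and 0.396, and with both 0.256, 0.261, 0.369, 0.368, 0.179 and 0.353. When arrays of high 3′–5′ difference were dropped they were 0.00731 (Cyp1a2), 0.103 (Cyp3a2) and 0.120 (Cyp51). Por turned to -0.0445 blocked on the number series and -0.00270 for animals numbered below 3000. Leaving out 1 array, Cyp1a2 ran from -0.149 to 0.00237, Cyp2c6v1 from -0.160 to 0.0683 and Slco1a4 from -0.0179 to 0.149. Of 71 genes checked, the other 63 kept their sign in every alternative run.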

Other observations

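Several large liver gene groups not described above were lower in the deposited scores and near 0 after quantile normalisation. Of 46 nuclear subunits of oxidative phosphorylation, the respiratory chain of mitochondria, 44 had negative differences with a median of -0.315, which became -0.0256 after quantile normalisation. Of 32 complement and coagulation genes, secreted by hepatocytes, 30 were negative with a median of -0.425 (-0.0783 after quantile normalisation). Of 20 apolipoprotein and lipoprotein assembly genes 19 were negative, with a median of -0.436 (-0.035). Genes of the unfolded protein response, which serve protein folding in the endoplasmic reticulum, were negative for 25 of 26 with a median of -0.292, and the median stayed below 0 at -0.0847. No member of these lists passed in limma as deposited or after quantile normalisation.

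Further lists also had 0 members past the threshold as deposited. Of 13 male-biased liver genes 10 were negative with a median of -0.189, and 9 were positive with a median of 0.172 after quantile normalisation, where 1 passed, Cyp2c11. Of 26 interferon genes 12 were positive with a median of -0.00533, and 20 were positive with a median of 0.0541 after quantile normalisation. Of 34 genes of the cell cycle and DNA replication 5 were positive (14.7%, against 20.1% of all genes) with a median of -0.09, and -0.0407 after quantile normalisation.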
